A study of Mus musculus with 6 samples.

Results

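The insulin-like growth factor (IGF) axis was followed in cultured cancer-associated fibroblasts (CAFs, the fibroblasts of a tumour) through 9 genes, taken by symbol from the 55401 genes of the count table. They are the ligands Igf1 and Igf2, the receptor Igf1r, and the binding proteins Igfbp2, Igfbp3, Igfbp4, Igfbp5, Igfbp6 and Igfbp7. Each symbol matched 1 gene, and all 9 were among the 13590 genes with enough reads to be tested. RNA-seq covered 6 libraries, 3 of CAFs with the genotype Thbs2KO and 3 of CAFs with the genotype WT (wild type). Thbs2, the gene the genotype names, encodes thrombospondin-2, a secreted glycoprotein of the extracellular matrix. In both groups the CAFs came from orthotopic tumours raised by injecting MTO, an abbreviation the labels leave unexplained, into the mouse rectum. They were plated on fibronectin and grown in DMEM with serum before total RNA was taken. The labels state no knockout allele, strain, age or sex, and do not say whether the tumour cells share the CAFs' genotype. Whether each replicate came from its own mouse is not stated either, so the tests rest on a spread that may be technical.

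IGF1 and IGF2 are secreted growth factors that signal through the receptor tyrosine kinase IGF1R, insulin receptor substrates and the kinases PI3K and AKT to promote growth and survival. In tissue they are held by a family of secreted binding proteins, which prolong their life, keep them from the receptor, or release them near it when a protease cuts the carrier. Fibroblasts are a known source of IGF1 and of several binding proteins in connective tissue and tumour stroma.

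Total expected counts ran from 19649066 to 20860335 in the Thbs2KO libraries and from 23061568 to 24417464 in the WT libraries. Values below are CPM, the reads of a gene scaled to a common library total with TMM factors, unless a sentence says otherwise. Thbs2, read as a check of the genotype labels, measured 412 to 538.2 CPM in Thbs2KO and 2327 to 4166 CPM in WT (edgeR log2 fold change -2.89 with SE 0.25, Benjamini-Hochberg adjusted p = 0.00521). Library pairs were compared by chi-square over genes, divided by its degrees of freedom. This was 3.78 for Thbs2KO replicates 1 and 2, which were kept as 2 samples and summed in an alternative, and 15.7 to 121.8 for the other pairs. WT replicate 1 (68.2 and 68.5 against WT replicates 2 and 3, which had 15.7 between them) and Thbs2KO replicate 3 (53.1 and 57.9 against Thbs2KO replicates 1 and 2) stood apart within their groups. Fibroblast markers differed widely in level. Col1a1 was at 11335 to 12055 CPM in Thbs2KO and 12144 to 14757 CPM in WT, and Fap, the lowest, at 6.38 to 13.2 and 2.76 to 7.67 CPM. The 12 fibroblast markers listed summed to 36525 to 54573 CPM in Thbs2KO and 36481 to 42865 CPM in WT, most of it Col1a1, Col1a2, Col3a1 and Postn. Leukocyte markers summed to 2.10 to 9.04 CPM in Thbs2KO and 3.86 to 14.4 CPM in WT, and glial markers to 0.804 to 1.17 CPM in Thbs2KO and 0.964 to 2.28 CPM in WT. The defining markers Cd3e (T cells) and Sox10 (glia) had 0 reads in all 6 libraries.

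By edgeR's quasi-likelihood test, adjusted over all tested genes, 0 of the 9 members changed in Thbs2KO at the threshold of 0.05, where 1.09% of all tested genes did. At an unadjusted p under 0.05 there were 4 members, where 13.3% of all tested genes passed: Igfbp5 and Igfbp6 with positive and Igfbp2 and Igfbp4 with negative log2 fold changes. For the same 4 the groups did not overlap in CPM, which held for 19.7% of all tested genes. DESeq2, another count test, called Igfbp2 and Igfbp4 lower and Igfbp5 higher, which is 3 of 9 members where it called 5.15% of all genes it gave an adjusted p. The limma-voom test called 0. The median log2 fold change of the members was -0.20, and that of all tested genes was -0.0038. In these bulk samples, fewer cells that express a gene and less RNA per cell cannot be told apart.

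**Figure D1:**
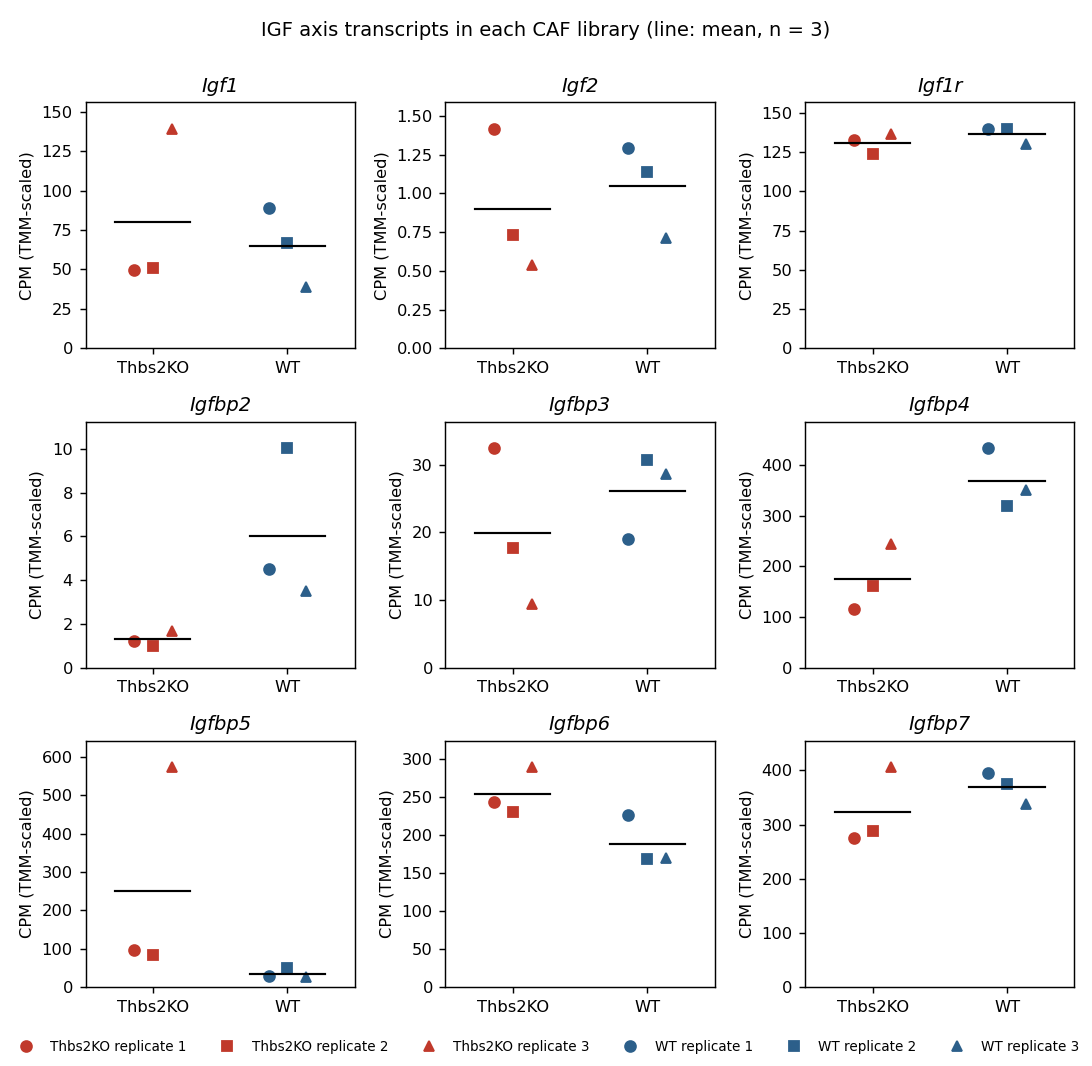
TMM-scaled CPM (vertical axes, linear, from 0) of each member in the 3 Thbs2KO and 3 WT libraries; marker shapes give the replicate number and black lines the group means. Igfbp2 and Igfbp4 lie lower, and Igfbp5 and Igfbp6 higher, in every Thbs2KO library than in any WT library, and Thbs2KO replicate 3 holds the highest Igf1 and Igfbp5 values, 139.2 and 572.4 CPM.

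Igf1 (ENSMUSG00000020053.18, chromosome 10, 87858265 to 87937042, plus strand, mm10) was the more abundant ligand. It measured 49.6, 50.8 and 139.2 CPM in Thbs2KO replicates 1, 2 and 3, and 89.2, 66.9 and 38.8 CPM in WT replicates 1, 2 and 3. The groups overlapped, since the Thbs2KO libraries held the highest value and 2 of the 3 lowest (edgeR log2 fold change 0.30 with SE 0.48, Benjamini-Hochberg adjusted p = 0.873). Its sign rested on Thbs2KO replicate 3: without it the log2 fold change was -0.37. Igf1os, an antisense gene, overlaps Igf1, and the library kit does not mark strand, so reads where they overlap cannot be told apart. Igf1os held 7 reads over the 6 libraries.

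Igf2 (ENSMUSG00000048583.16, chromosome 7, 142650766 to 142666816, minus strand), the fetal growth factor expressed from the paternal allele, had few reads. Its counts were 30, 15 and 11 in Thbs2KO replicates 1, 2 and 3 and 30, 26 and 17 in WT replicates 1, 2 and 3, or 0.897 ± 0.462 CPM and 1.05 ± 0.30 CPM (SD, n = 3 each). The groups overlapped (edgeR log2 fold change -0.22 with SE 0.44, Benjamini-Hochberg adjusted p = 0.902), and without Thbs2KO replicate 3 the log2 fold change was 0.043. H19, the imprinted noncoding RNA that lies 72622 bases from Igf2, measured 3.10 ± 0.42 CPM in Thbs2KO and 3.35 ± 1.33 CPM in WT, and its groups overlapped too. The insulin genes Ins1 and Ins2 had 0 reads in every library. A count of 0 allows up to 3 reads, or 0.142 to 0.147 CPM in the Thbs2KO libraries and 0.126 to 0.131 CPM in the WT libraries, counting error only.

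Igf1r (ENSMUSG00000005533.10, chromosome 7, 67952827 to 68233668, plus strand), the signalling receptor of both ligands, varied least. It measured 132.4, 124.05 and 136.7 CPM in Thbs2KO replicates 1, 2 and 3, and 139.95, 139.7 and 130.4 CPM in WT replicates 1, 2 and 3. The groups overlapped (edgeR log2 fold change -0.061 with SE 0.071, Benjamini-Hochberg adjusted p = 0.806), and the SD of its log2 CPM over the 6 libraries was 0.067, the smallest of the 7 members with a mean of at least 5 CPM. Of the related receptors, Igf2r, which clears IGF2 and carries lysosomal enzymes, measured 438.4 ± 95.8 CPM in Thbs2KO and 348.5 ± 124.0 CPM in WT (edgeR log2 fold change 0.33 with SE 0.27, adjusted p = 0.697). Its antisense partner Airn held 226 reads over the 6 libraries. Igf2r lies on chromosome 17 (12682406 to 12769664), the chromosome of Thbs2 itself (14665500 to 14694235). The part of this nearness to the Thbs2 locus in the Igf2r level was not tested. In Igf2r the high libraries were Thbs2KO replicate 3 at 548.5 CPM and WT replicate 1 at 490.1 CPM, the same 2 that stood apart from their groups. Without both of them Igf2r was called higher in Thbs2KO (log2 fold change 0.47, edgeR adjusted p = 0.0115), in a fit that called 11.2% of all genes and 3 of the 9 members. Only Thbs2KO replicates 1 and 2 remain on the Thbs2KO side of that fit, the closest pair of libraries, which the labels do not assign to separate animals. On the WT side WT replicates 2 and 3 remain, the closest WT pair, at 15.7. The 2 libraries left out were those that stood apart in these same counts, so each p from the fit rests on a spread made small by that choice. With all WT libraries and Thbs2KO replicate 3 kept, and Thbs2KO replicates 1 and 2 summed into 1 library, 0 members were called. The insulin receptor Insr measured 51.4 ± 5.35 CPM in Thbs2KO and 48.1 ± 3.51 CPM in WT (edgeR adjusted p = 0.78). Insrr, an insulin receptor relative, had 3 reads in the Thbs2KO libraries together and 2 reads in the WT libraries together.

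All 4 members whose groups did not overlap were binding proteins. Of these Igfbp2, Igfbp4 and Igfbp5 were called by DESeq2, with group means that differed 4.67-, 2.11- and 7.27-fold. The 250 bases before their start sites are given here because these are the members the comparison turns on, and because Igfbp2 and Igfbp5, whose fold changes had opposite signs, lie 5457 bases apart on chromosome 1 with their 3′ ends facing. Capitals mark matches to any of 7 motifs searched on both strands, a search chosen after the values were seen. The sequences are those of RefSeq, build GRCm38.p6, written 5′ to 3′ on the strand of the gene, for chr1:72824230-72824479 (plus strand), chr11:99040994-99041243 (plus strand) and chr1:72874866-72875115 (minus strand). For Igfbp2, which has 2 starts in RefSeq, the one nearest to the annotated gene start was taken.
Igfbp2: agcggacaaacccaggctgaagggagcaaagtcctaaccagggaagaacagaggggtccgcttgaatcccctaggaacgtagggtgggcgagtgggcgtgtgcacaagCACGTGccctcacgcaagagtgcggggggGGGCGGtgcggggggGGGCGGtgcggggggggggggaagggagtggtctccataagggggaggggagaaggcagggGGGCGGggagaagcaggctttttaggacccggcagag
Igfbp4: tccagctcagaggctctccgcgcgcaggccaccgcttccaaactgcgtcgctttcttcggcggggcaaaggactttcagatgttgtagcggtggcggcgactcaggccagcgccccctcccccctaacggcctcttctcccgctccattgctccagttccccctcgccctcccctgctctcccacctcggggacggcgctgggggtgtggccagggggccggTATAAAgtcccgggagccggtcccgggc
Igfbp5: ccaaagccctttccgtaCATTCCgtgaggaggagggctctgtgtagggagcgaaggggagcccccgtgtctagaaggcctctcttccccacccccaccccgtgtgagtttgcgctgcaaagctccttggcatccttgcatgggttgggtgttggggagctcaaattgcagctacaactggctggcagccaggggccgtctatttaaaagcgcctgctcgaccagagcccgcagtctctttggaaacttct

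The windows differ in make-up, with 67.2% G and C before Igfbp2, 69.2% before Igfbp4 and 58.8% before Igfbp5. The Igfbp2 window holds an E-box (CACGTG) whose first base is at -142 from the start, and 3 GC boxes (GGGCGG) at -113, -98 and -37. The Igfbp4 window holds a TATA box (TATAAA) at -28, and the Igfbp5 window a TEAD motif (GGAATG) on the opposite strand at -233. None of these matches overlap each other. Of all 32851 windows of the same length, 6.02% hold the E-box, 32.7% the GC box, 12.4% the TATA box and 12.6% the TEAD motif. The CRE (TGACGTCA), AP-1 (TGANTCA) and FOXO (TGTTTAC) letters, present in 1.55%, 6.75% and 3.17% of windows, are not in these 3. A match is a description of the letters and not a site of binding.

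Igfbp4 (ENSMUSG00000017493.12, chromosome 11, 99041244 to 99054392, plus strand) encodes a carrier that holds IGFs away from the receptor until the protease PAPP-A cuts it. It measured 116.6, 161.97 and 243.4 CPM in Thbs2KO replicates 1, 2 and 3, and 433.5, 319.1 and 350.7 CPM in WT replicates 1, 2 and 3. The groups were apart, with Thbs2KO replicate 3 the nearest to WT. The means were 174 ± 64.2 CPM in Thbs2KO and 367.8 ± 59.1 CPM in WT (SD, n = 3 each). The edgeR log2 fold change was -1.08 with SE 0.27, which missed the threshold (Benjamini-Hochberg adjusted p = 0.141) but passed it by DESeq2 (adjusted p = 0.00233) and, by edgeR, without WT replicate 1 and Thbs2KO replicate 3 (adjusted p = 0.0354), a fit whose Thbs2KO side is the close pair of replicates 1 and 2. With single libraries left out the edgeR log2 fold change ran from -1.40 to -0.86.

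Igfbp2 (ENSMUSG00000039323.18, chromosome 1, 72824503 to 72852474, plus strand), a carrier with an integrin-binding motif, was rare. Its counts were 26, 20 and 34 reads in Thbs2KO replicates 1, 2 and 3 and 105, 229 and 84 reads in WT replicates 1, 2 and 3. As CPM these were 1.23, 0.979 and 1.66 in Thbs2KO and 4.52, 10.03 and 3.52 in WT. The groups did not overlap, and WT replicate 2 was the highest library. The log2 fold change was -2.22 with SE 0.46, the smallest p of any member (edgeR unadjusted p = 0.00224), with a Benjamini-Hochberg adjusted p = 0.0901 by edgeR and 0.000259 by DESeq2. Without WT replicate 2 the log2 fold change was -1.62. Epithelial markers ran the same way: the 10 listed summed to 7.28 to 9.83 CPM in the Thbs2KO libraries and 19.9 to 27.1 CPM in the WT libraries, and all 6 tested had negative log2 fold changes, as 6912 of the 13590 tested genes did. Of the 6, 0 were called by edgeR and 2 by DESeq2, where 1.09% and 5.15% of all genes were. Krt19, the largest part of that sum in every library, was 3.57 to 6.21 CPM in Thbs2KO and 9.86 to 14.6 CPM in WT. The groups did not overlap for 2 of the 6, Krt19 and Krt20, where 19.7% of all tested genes did not. In the other tested markers, Epcam, Krt8, Krt18 and Cdh1, the groups overlapped through Thbs2KO replicate 3. Cdx2, which defines intestinal epithelium, had 0 reads in 5 of the 6 libraries and 0.168 CPM in WT replicate 3. The 6 mesothelial markers summed to 4.60 to 7.49 CPM in Thbs2KO and 11.4 to 15.0 CPM in WT, also without overlap. Krt19 is on that list too and made up most of each sum. Wt1, the only other mesothelial marker tested, had a positive log2 fold change of 0.92, and its groups overlapped. The mesothelial markers Upk3b and Lrrn4 had 0 reads in every library. The part of either list in the Igfbp2 and Igfbp4 levels was not tested.

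Igfbp5 (ENSMUSG00000026185.8, chromosome 1, 72857932 to 72874884, minus strand), a carrier that binds extracellular matrix, showed the widest range. It measured 96.9, 84.1 and 572.4 CPM in Thbs2KO replicates 1, 2 and 3, and 29.3, 48.8 and 25.6 CPM in WT replicates 1, 2 and 3. All Thbs2KO libraries lay above all WT libraries, but replicate 3 was 5.91 times the median of its group. The log2 fold change was 2.86 with SE 0.81 (edgeR, Benjamini-Hochberg adjusted p = 0.188; DESeq2, adjusted p = 0.0328). Without Thbs2KO replicate 3 it was 1.39, with an edgeR adjusted p = 0.131. Of the 12 fibroblast markers, 10 were also highest among the Thbs2KO libraries in replicate 3 and 2 were lowest there, against 45.1% and 40.5% of all tested genes. The proteoglycan Dcn was at 352.4, 274.6 and 1004 CPM in Thbs2KO replicates 1, 2 and 3 and at 199.1 to 323.2 CPM in WT, while the intermediate filament gene Vim was at 2272, 2401 and 1501 CPM in Thbs2KO replicates 1, 2 and 3 and at 1995 to 2773 CPM in WT. Between genotypes 8 of the 12 had positive and 4 negative log2 fold changes and 0 were called by edgeR. Their part in the Igfbp5 level was not tested. The pericyte and smooth muscle list summed to 526.5 to 675 CPM in Thbs2KO and 546.5 to 1564 CPM in WT. Of its 12 genes only 1, the pericyte marker Rgs5, was under 1 CPM in every library. Cnn1 was at 91.8 to 122.1 CPM in Thbs2KO and 151.1 to 421.1 CPM in WT, and Des at 71.3 to 105.3 and 11.5 to 175.2 CPM. Of its 11 tested genes 8 had negative and 3 positive log2 fold changes. For 6 the change was negative with an edgeR unadjusted p under 0.05, as it was for 1028 of all 13590. These were Mcam, Smtn, Cnn1, Actg2, Myh11 and Lmod1. Of the 11, edgeR called 0 and DESeq2 called 4, all lower, where 1.09% and 5.15% of all genes were called. The groups did not overlap for 3, all lower in Thbs2KO, where 19.7% of all tested genes did not overlap. The part of this list in the Igfbp5 level was not tested.

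Igfbp6 (ENSMUSG00000023046.6, chromosome 15, 102144362 to 102149511, plus strand), a carrier with a preference for IGF2, measured 242.7, 229.4 and 288.5 CPM in Thbs2KO replicates 1, 2 and 3 and 225.7, 168.7 and 169.5 CPM in WT replicates 1, 2 and 3. The groups did not overlap, but Thbs2KO replicate 2 and WT replicate 1 were close. The log2 fold change was 0.43 with SE 0.15 and an edgeR Benjamini-Hochberg adjusted p = 0.273. Without WT replicate 1 and Thbs2KO replicate 3 the gene was called higher (log2 fold change 0.48, edgeR adjusted p = 0.00288), against the small spread of Thbs2KO replicates 1 and 2, which may share an animal.

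Igfbp7 (ENSMUSG00000036256.13, chromosome 5, 77349240 to 77408041, minus strand), a relative that binds IGFs weakly and is made by stromal and vascular cells, measured 275.3, 287.5 and 405.6 CPM in Thbs2KO replicates 1, 2 and 3. It measured 395.5, 375.8 and 337.5 CPM in WT replicates 1, 2 and 3. The groups overlapped only through Thbs2KO replicate 3, the highest library of all (log2 fold change -0.20 with SE 0.16, edgeR Benjamini-Hochberg adjusted p = 0.706). Without that library and WT replicate 1 Igfbp7 was called lower (log2 fold change -0.34, edgeR adjusted p = 0.02), again with only the close pair of Thbs2KO replicates 1 and 2 left. The gene Polr2b, on the opposite strand, overlaps it and held 10280 reads over the 6 libraries, and its reads cannot be told from those of Igfbp7 where they overlap. The 8 endothelial markers, 6 of them under 1 CPM in every library, summed to 32.3 to 50.6 CPM in Thbs2KO and 11.8 to 32.3 CPM in WT. Most of the difference was Kdr, at 45.0, 28.04 and 21.5 CPM in Thbs2KO replicates 1, 2 and 3 and 2.50, 26.3 and 10.56 CPM in WT replicates 1, 2 and 3, while Tek, the other tested marker, had a log2 fold change of -0.01 and Cldn5 had 0 reads. Their part in the Igfbp7 level was not tested.

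Igfbp3 (ENSMUSG00000020427.11, chromosome 11, 7206086 to 7213923, minus strand), the main carrier of IGFs in blood, measured 32.4, 17.6 and 9.39 CPM in Thbs2KO replicates 1, 2 and 3 and 18.98, 30.7 and 28.6 CPM in WT replicates 1, 2 and 3. The groups overlapped, with both extremes in Thbs2KO (log2 fold change -0.40 with SE 0.43, edgeR Benjamini-Hochberg adjusted p = 0.785). Igfbp1, its neighbour 3539 bases away, and the related Igfbpl1 had 0 reads in every library. Igfals, the partner that joins Igfbp3 in blood, had 1 read in the WT libraries together and 0 in the Thbs2KO libraries.

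Levels were compared between genes as CPM per kilobase of annotated exon. In the Thbs2KO libraries the order was Igfbp7 (267 ± 59.5), Igfbp6 (228 ± 27.9), Igf2r (47.1 ± 10.3), Igfbp5 (41.8 ± 46.3), Igfbp4 (39.4 ± 14.5), Igf1 (8.07 ± 5.19), Igf1r (7.805 ± 0.382), Igfbp3 (6.33 ± 3.73), Insr (3.74 ± 0.39), Igfbp2 (0.698 ± 0.187) and Igf2 (0.157 ± 0.081 CPM per kb, SD, n = 3). Neighbours in that order overlapped in range except at 4 steps: Igfbp6 over Igf2r, Igfbp4 over Igf1, Insr over Igfbp2, and Igfbp2 over Igf2. In the WT libraries the order was Igfbp7 (305.7 ± 24.4), Igfbp6 (169.1 ± 29.4), Igfbp4 (83.3 ± 13.4), Igf2r (37.4 ± 13.3), Igfbp3 (8.34 ± 1.996), Igf1r (8.14 ± 0.32), Igf1 (6.56 ± 2.55), Igfbp5 (5.75 ± 2.07), Insr (3.50 ± 0.26), Igfbp2 (3.26 ± 1.90) and Igf2 (0.183 ± 0.052 CPM per kb). There the ranges overlapped between Igfbp3, Igf1r, Igf1 and Igfbp5 in turn and between Insr and Igfbp2, and not between the other neighbours. The place of Igfbp5 in Thbs2KO rested on replicate 3, at 95.3 CPM per kb. In Thbs2KO replicates 1 and 2 it was at 16.1 and 14.01 CPM per kb, below Igfbp4 at 26.4 and 36.7 CPM per kb.

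The summed level of the 6 binding proteins was 583.2 ± 143.8 CPM per kb in Thbs2KO and 575.4 ± 59.6 CPM per kb in WT (SD, n = 3 each). Igfbp4 was 5.29% to 7.36% of the sum in the Thbs2KO libraries and 12.9% to 15.3% in the WT libraries. Igfbp6 was 34.6% to 43.7% in Thbs2KO and 27.2% to 31.6% in WT. Igfbp5 was 2.80% to 12.7% in Thbs2KO and 0.76% to 1.45% in WT. Igfbp7, the largest part throughout, was 44.8% to 47.5% in Thbs2KO and 51.0% to 55.7% in WT. These 4 shares and that of Igfbp2 did not overlap between groups, and that of Igfbp3 did. Shares of a sum depend on each other and were not tested.

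**Figure D2:**
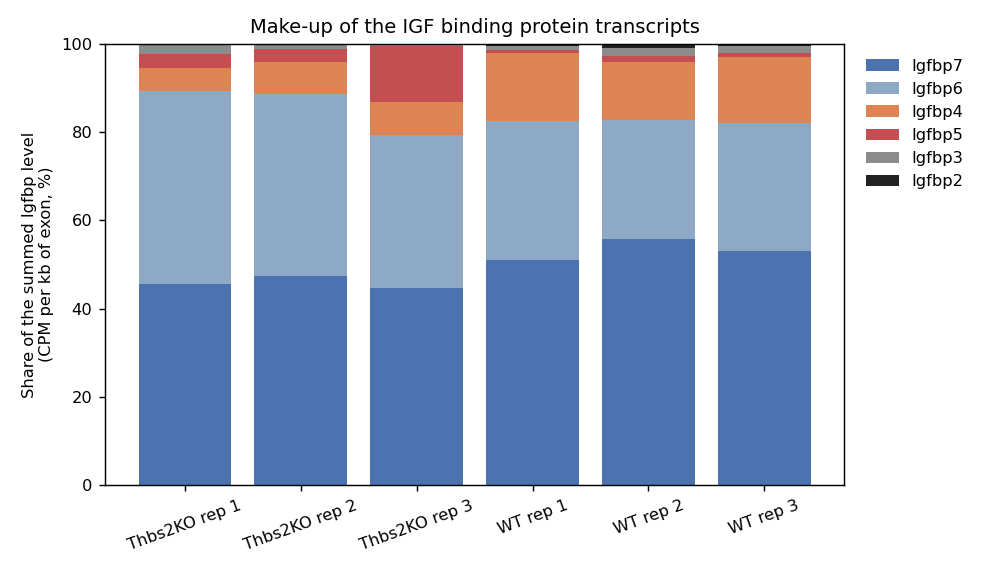
Share of each binding protein in the summed Igfbp level (vertical axis, percent of CPM per kilobase of exon) in each of the 3 Thbs2KO and 3 WT libraries (horizontal axis). The Igfbp4 band is 5.29% to 7.36% in the Thbs2KO libraries and 12.9% to 15.3% in the WT libraries, and the Igfbp5 band reaches 12.7% in Thbs2KO replicate 3.

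Around the 9 members, 85 further genes of the pathway were listed by role, of which 77 were tested. By edgeR 0 of the 77 changed, and DESeq2 called 5 higher and 4 lower. The edgeR p before adjustment was under 0.05 for 7 with positive and 10 with negative log2 fold changes. Their median log2 fold change was 0.035. Of all tested genes 13.3% passed that unadjusted threshold and 5.15% were called by DESeq2. Without WT replicate 1 and Thbs2KO replicate 3, with the close pair of Thbs2KO replicates 1 and 2 left, edgeR called 10 of them, where it called 11.2% of all genes: Igf2r, Grb10, Irs1 and Igf2bp2 higher, and Pappa, Socs3, Trib1, Rheb, Peg10 and Crim1 lower.

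Among the proteases that cut binding proteins and the inhibitors of these proteases, 0 of 6 tested genes changed. Pappa, the protease PAPP-A that cuts Igfbp4, measured 54.2, 68.02 and 103.5 CPM in Thbs2KO replicates 1, 2 and 3 and 62.5, 95.3 and 103.5 CPM in WT replicates 1, 2 and 3, with groups that overlapped (edgeR adjusted p = 0.838, and a log2 fold change of -0.70 with adjusted p = 0.0249 without WT replicate 1 and Thbs2KO replicate 3). The stanniocalcins inhibit PAPP-A. Stc1 was rare, with 36, 13 and 17 reads in the Thbs2KO libraries and 110, 44 and 91 reads in the WT libraries (log2 fold change -1.72 with SE 0.48, edgeR adjusted p = 0.185, DESeq2 adjusted p = 0.0262). Stc2 measured 24.2 ± 1.07 CPM in Thbs2KO and 24.1 ± 8.38 CPM in WT. Of the other secreted proteins that share the IGFBP domain, 0 of 6 changed by edgeR. Kazald1 had the smallest p, at 1.03 ± 0.20 CPM in Thbs2KO and 2.58 ± 0.59 CPM in WT (log2 fold change -1.32, edgeR adjusted p = 0.0988, DESeq2 adjusted p = 0.0144).

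Downstream of the receptor, 0 of 13 receptor substrates and adaptors changed. Grb10, an adaptor that restrains IGF1R and insulin receptor signalling, measured 369.8 ± 25.9 CPM in Thbs2KO and 290.5 ± 10.1 CPM in WT without overlap (log2 fold change 0.35 with SE 0.08, edgeR adjusted p = 0.117, DESeq2 adjusted p = 0.00274). In the PI3K, AKT and mTOR list 0 of 20 changed, with a median log2 fold change of 0.02. Pik3r1, the regulatory subunit p85-alpha, had the smallest p there (129.1 ± 30.5 CPM in Thbs2KO and 86.8 ± 9.11 CPM in WT, edgeR adjusted p = 0.22, DESeq2 adjusted p = 0.0492). Of 11 FOXO factors and feedback targets 0 changed. Trib1, a pseudokinase, measured 9.60 ± 1.66 CPM in Thbs2KO and 16.6 ± 0.59 CPM in WT, and had the smallest p of the whole pathway (log2 fold change -0.79, edgeR adjusted p = 0.0706, DESeq2 adjusted p = 0.000607). Foxo1, a transcription factor that AKT keeps out of the nucleus, was called higher by DESeq2 (log2 fold change 0.68, adjusted p = 0.0104) and not by edgeR (adjusted p = 0.125).

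In the remaining lists, 0 of 6 genes of the growth hormone receptor and STAT5 list, 0 of 11 of the imprinted gene network and 0 of 3 IGF2 mRNA-binding proteins changed by edgeR. Cish, a STAT5-induced inhibitor of cytokine signalling, had 1.87 ± 0.08 CPM in Thbs2KO and 3.47 ± 0.60 CPM in WT (edgeR adjusted p = 0.127, DESeq2 adjusted p = 0.047). Ghr, the receptor that drives Igf1 transcription in liver, had 89.5 ± 21.8 CPM in Thbs2KO and 53.1 ± 9.52 CPM in WT (edgeR adjusted p = 0.185, DESeq2 adjusted p = 0.0197). Plagl1, a zinc finger factor of the imprinted network, had 12.4 ± 1.92 CPM in Thbs2KO and 7.31 ± 2.12 CPM in WT (edgeR adjusted p = 0.249). Igf2bp2, which binds Igf2 mRNA, had 84.3 ± 5.59 CPM in Thbs2KO and 58.3 ± 10.02 CPM in WT (edgeR adjusted p = 0.141, DESeq2 adjusted p = 0.018).

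**Figure D3:**
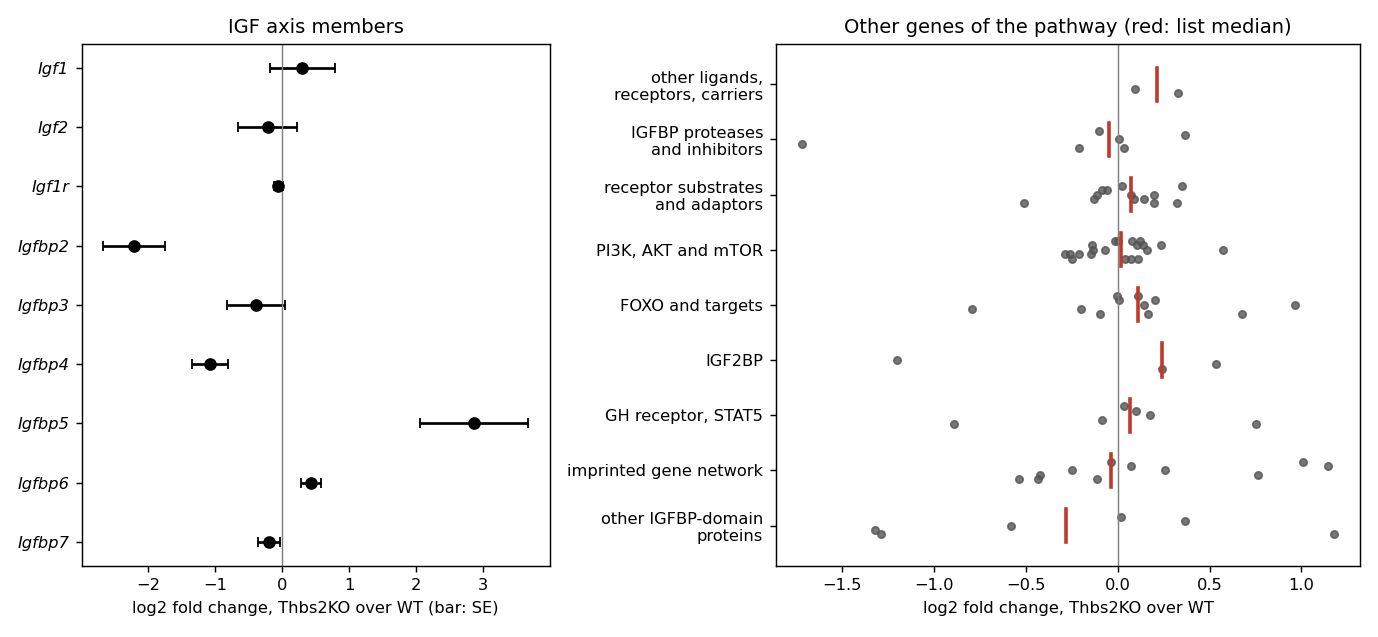
Log2 fold change of Thbs2KO over WT (horizontal axes), at left for each member with its standard error, at right for the tested genes of each pathway list as points with the list median in red. The members span -2.22 for Igfbp2 to 2.86 for Igfbp5, and the list medians lie between -0.28 and 0.24.

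For the 3 most variable members with a mean of at least 5 CPM, the protein-coding genes with the most similar profile over the 6 libraries were sought among 10061 genes, as the smallest root mean square difference in centred log2 CPM. For Igfbp5, whose own root mean square deviation was 1.49, these were the small proteoglycans Ogn and Aspn and the neurotrophin receptor Ngfr, at differences of 0.51, 0.55 and 0.59. By that choice they share its peak in Thbs2KO replicate 3, with Ogn at 368.5, 267.7 and 770.6 CPM in Thbs2KO replicates 1, 2 and 3 and 79.8, 185.1 and 81.7 CPM in WT replicates 1, 2 and 3. Cenpp overlaps Ogn and Aspn on the opposite strand. For Igfbp4 (own deviation 0.66) they were the cadherin Cdh3, the extracellular superoxide dismutase Sod3 and the potassium channel Kcnh2, at 0.18, 0.19 and 0.23. Kcnh2 measured 6.05, 6.70 and 7.87 CPM in the Thbs2KO libraries and 14.2, 12.1 and 13.5 CPM in the WT libraries. In the edgeR fit of all genes Kcnh2 was called lower in Thbs2KO (log2 fold change -0.95, adjusted p = 0.0395). Cdh3 (edgeR adjusted p = 0.1) and Sod3 (edgeR adjusted p = 0.263) were not called. The choice of these genes by profile, as of those for Igfbp5, fixed their direction, so these p add nothing to the result of the member. For Igfbp3 (own deviation 0.62) they were Tg, Zfp428 and the kinetochore motor Cenpe, at 0.14, 0.29 and 0.30. Tg, which Sla overlaps on the opposite strand, measured 7.28, 5.33 and 2.49 CPM in the Thbs2KO libraries and 4.56, 8.06 and 7.96 CPM in the WT libraries.

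**Figure D4:**
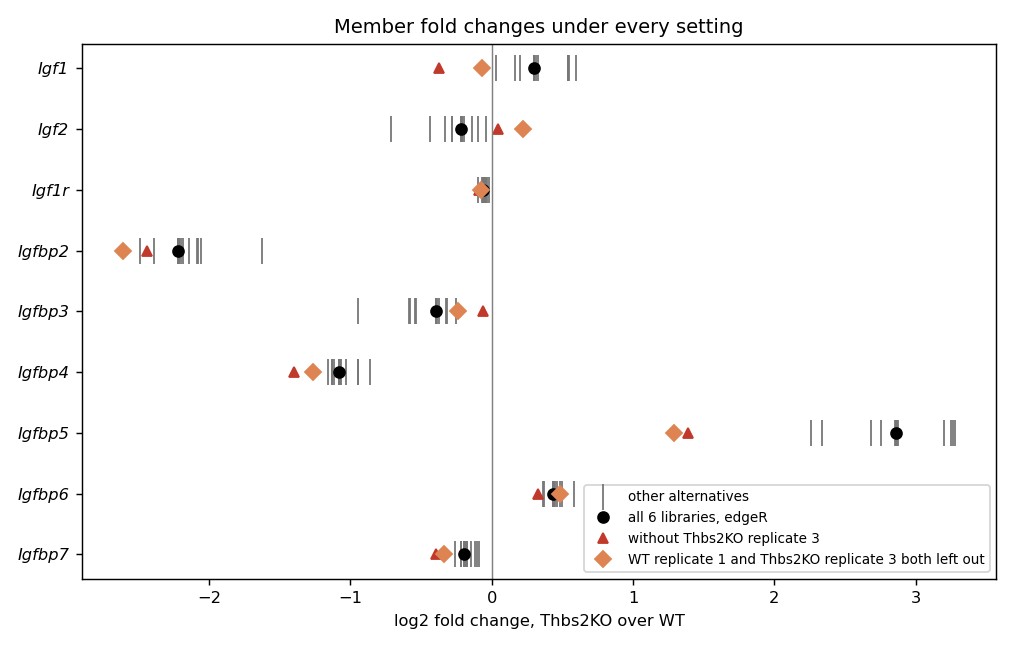
Log2 fold change of Thbs2KO over WT (horizontal axis) of each member under the edgeR fit of all 6 libraries and under every alternative tried. Igfbp2, Igfbp4, Igfbp5 and Igfbp6 stay on 1 side of 0 throughout, Igf1 and Igf2 cross it without Thbs2KO replicate 3, and Igfbp5 drops to 1.39 without that library.

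Across the 16 alternatives the signs of Igfbp2, Igfbp4, Igfbp5 and Igfbp6 held in all fits that gave a value (15 for Igfbp2, which the stricter filter removed), and so did those of Igfbp3, Igfbp7 and Igf1r. Their calls did not hold across methods: of the alternatives, 1 called Igfbp2, 2 called Igfbp4, and 1 each called Igfbp5, Igfbp6 and Igfbp7.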

How the data were processed

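Total RNA of cultured CAFs was read by RNA-seq in 6 libraries; the labels' protocols name the TruSeq RNA Sample Prep v2 chemistry, a kit without strand information. The authors deposited expected counts per gene, not scaled between libraries; the tools named in the submitters' processing notes are RSEM, STAR 2.7.3a and Trimmomatic 0.39, and the build is mm10. The deposited expected counts (3.80% to 3.88% of values not whole) were rounded. RSEM shares reads that match several genes between them, which adds uncertainty for near copies. Genes passing filterByExpr (13590) were TMM-scaled and tested with edgeR 4.0.16 (robust quasi-likelihood, genotype only) in R 4.3.3, with Benjamini-Hochberg adjustment over all of them; SEs come from the F statistic. Alternatives were DESeq2 1.42.0, voom from limma 3.58.1, scaling by RLE or by upper quartile, no filter, at least 5 CPM in 3 libraries, no robust estimation, a replicate block, each library left out, WT replicate 1 with Thbs2KO replicate 3 left out, and Thbs2KO replicates 1 and 2 summed. The members and lists were chosen with earlier results of these data known. The naming rule took all members, each list's changed genes or else its smallest p, the named ligands, carriers and Stc genes, and the closest profiles. Foxo1, Ghr, Dcn, Vim, Krt19 and Kdr were added after their values were seen. The other marker genes named singly, the genes called in the fit without 2 libraries and the overlapping genes were named outside that rule too. Positions and exon lengths come from GENCODE M21 (GRCm38, as mm10), and the length used to divide CPM is the union of a gene's exons, which may differ from the transcripts present. Matplotlib 3.10.9 under Python 3.11.15 drew the figures.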

Additional observations from a re-analysis of the deposited data

How the results depend on the processing

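Over all genes 148 changed. The count was 699 by DESeq2, 245 with no filter, 30 with the replicate block, 1519 without WT replicate 1 and Thbs2KO replicate 3, and 40 with Thbs2KO replicates 1 and 2 summed; with 1 library left out it ran from 38 (without Thbs2KO replicate 1) to 397 (without WT replicate 1), and leaving out Thbs2KO replicate 2 gave 45, WT replicate 2 gave 79 and WT replicate 3 gave 49. Members called were 0 in the main test and in every alternative but 2, with 3 by DESeq2 and 3 without WT replicate 1 and Thbs2KO replicate 3, and Igfbp4 was in both sets. Pathway genes called were 9 by DESeq2, 10 without those 2 libraries, and 0 to 2 with 1 library left out. Of 142 member fold changes under alternatives, 132 kept their sign and side of the threshold, 6 became called and 4 turned sign. The turns were those of Igf1 (-0.072 without both libraries, and -0.37 to 0.60 with 1 library left out) and Igf2 (0.22, and -0.71 to 0.043). The cause was not tested. Samples with the same replicate number did not deviate together (correlations of -0.29, 0.17 and -0.33 over genes), so the replicate block pairs libraries by number alone. Under that block 0 members were called, and Thbs2 had an edgeR adjusted p = 0.0784. The highest correlation of any Thbs2KO and WT library was 0.40, for Thbs2KO replicate 3 and WT replicate 1. The fit without 2 libraries leaves the closest pair of each group, WT replicates 2 and 3 and Thbs2KO replicates 1 and 2, and the latter may share an animal. Dividing CPM by the longest coding transcript, chosen after seeing the data, gave Igfbp4 5.98% to 8.34% of the binding protein sum in Thbs2KO and 14.4% to 17.1% in WT. Depth limits Igf2 and Igfbp2, which had 11 to 30 and 20 to 229 reads per library.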
